A study of Mus musculus with 7 samples.

Results

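The enzymes that write and erase methyl groups on histone lysines were followed in airspace cells of mice bred to lack netrin-1 in myeloid cells. The set comprised the 35 protein-coding genes of the deposited table, out of 16476 rows, whose symbol begins with Kmt, Setd or Kdm followed by a digit or a b and whose mean over the 7 libraries was at least 10 normalized counts (reads per gene scaled by 1 factor for each library). Kdm5d was left out by that rule. The lowest members were Kdm4d, with a mean of 14.5 normalized counts, and Setd4, with 28.7, and no protein-coding row with a matching symbol fell below 10. The knockout group, labelled Netrin1loxp/loxp LysM Cre, comprised 3 libraries from C57BL/6 mice with floxed alleles of Ntn1 and Cre in the lysozyme M locus. The control group, labelled LysM Cre, comprised 4 libraries from C57BL/6 mice for which the label names the same Cre alone. All mice had received lipopolysaccharide (LPS) into the trachea 3 days before the lungs were washed, and neutrophils were depleted from the lavage cells with antibodies before RNA was taken. The Cre is expressed in macrophages and granulocytes, so lymphocytes in the lavage should keep Ntn1, which was not checked here. The labels give neither the age nor the sex of the mice, and do not say that libraries stem from separate mice, so the p-values speak of the variation among these 7 libraries, which may be technical.

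Methylation of histone H3 at lysine 4 marks promoters and enhancers in use, methylation at lysine 36 marks transcribed gene bodies, and methylation at lysines 9 and 27 accompanies silencing. SET domain proteins add these groups, and the amine oxidases Kdm1a and Kdm1b and the larger family of JmjC dioxygenases take them off. In macrophages the balance at enhancers and promoters is known to change within hours of a bacterial stimulus, and the H3K27 demethylase Kdm6b was described there as an LPS-induced gene.

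The recovered totals lay between 12224835 and 13182585 reads in knockout libraries and between 9903284 and 13353733 reads in control libraries. Ntn1 itself had 1, 0 and 1 reads in knockout libraries and 1, 4, 9 and 3 reads in control libraries, too few to check the labels. Macrophage genes were abundant in every library, with Csf1r at 7559 to 10866 normalized counts in knockout and at 12021 to 15814 in control libraries, and no marker of macrophages stood at 0. Knockout replicate 1 stood apart: its 5 erythroid markers summed to 128090 normalized counts, against 6521 and 10024 in the other knockout libraries and 1209.6 to 25134 in control libraries. Its 6 neutrophil markers summed to 55236, against 17959.5 and 18771 in the other knockout libraries and 11893 to 13268 in control libraries. Lyz2, whose locus carries the Cre, was at 910 to 1052 normalized counts in knockout libraries, and at 76927 and 118781 in control replicates 1 and 4 against 770.1 and 721 in control replicates 2 and 3.

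Of the methyltransferases and demethylases, 10 were lower in knockout airspace cells, 8 of them methyltransferases, and 25 did not pass the test. At an adjusted p under 0.05 (limma on log2(normalized count + 1), Benjamini-Hochberg adjustment over 12963 genes), 10 of the 35 members fell and 0 rose, which is 28.6% of them, where 11.3% of all tested genes fell and 10.4% rose. The unadjusted p was under 0.05 for 17 members with a negative and 1 with a positive fold change, and on the recovered reads edgeR called 0 members higher (10.5% of all tested genes) and DESeq2 1, Kdm2b (10.9% of all). These tools called 11 members lower each, against 11.5% of all tested genes with edgeR and 12.4% with DESeq2. The log2 fold change was below 0 for 29 of 35 members, or 82.9%, against 48.1% of all tested genes, and the median was -0.21 against 0.01 over all tested genes. The knockout libraries all lay below the control libraries for 16 members, or 45.7%, against 16.3% of all tested genes, and all above them for 0 members, against 17.4%. The members were picked with this comparison known, were counted more deeply than most genes (median 1082 normalized counts, against 293 over all tested genes), and were longer than most, so these shares are a description. The changes were modest: the 10 that fell were lower by 15.6% to 41.2% in mean normalized count.

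The count of 10 changed with the libraries used. Without knockout replicate 1, the library with the high erythroid and neutrophil sums, 8 members fell and Kdm2b rose, against 9.57% and 9.05% of all tested genes. Without knockout replicate 2, 5 members fell, where 6.25% of all tested genes did, and without control replicate 2, 6 members fell, where 7.14% did. Without control replicates 1 and 4, the libraries with high Lyz2, 3 members fell, against 4.45% of all tested genes, and without control replicates 2 and 3 also 3, against 4.78%. The authors' deposited table, with its own adjusted p under 0.05, listed 10 members as lower and 1 as higher, against 11.4% and 10.6% of the genes with an adjusted p there. In bulk RNA, fewer cells of a type and less RNA per cell cannot be told apart.

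**Figure D1:**
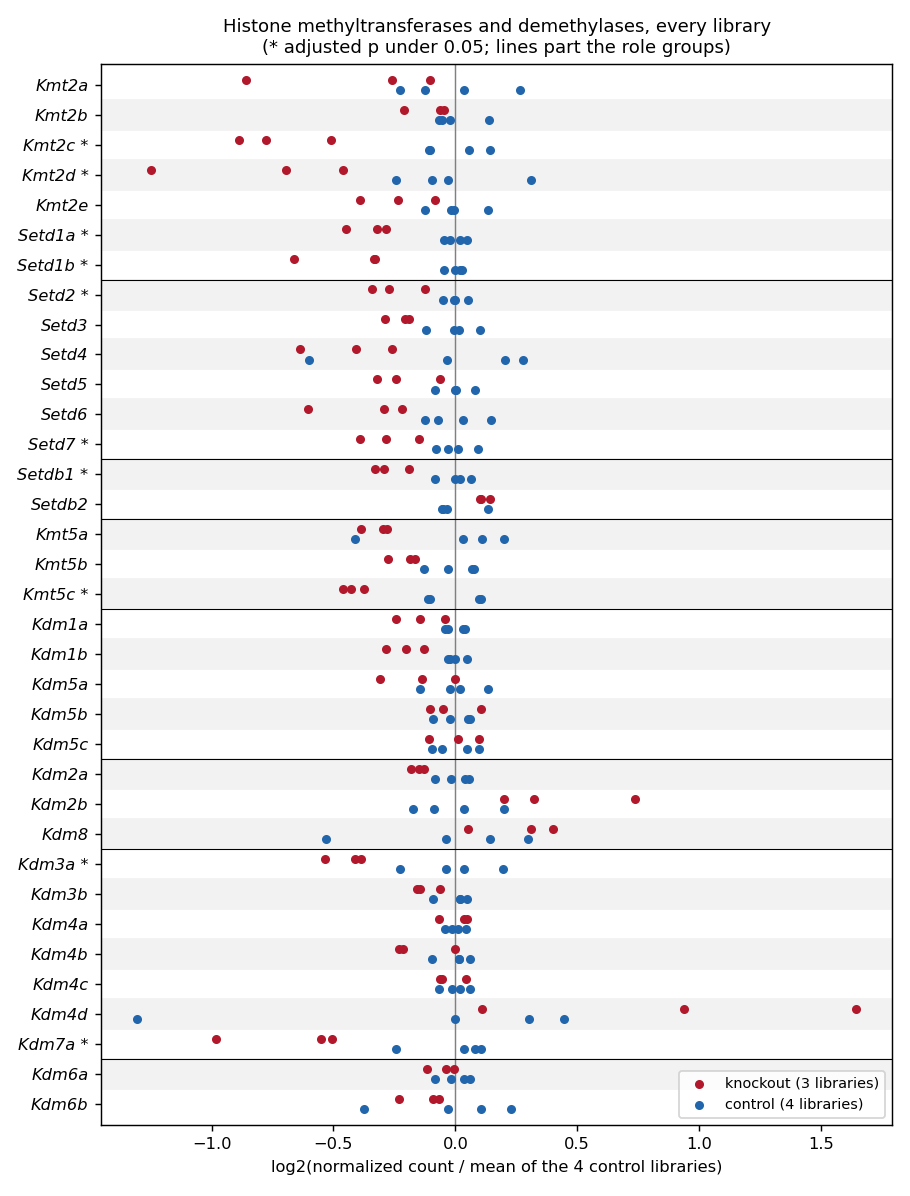
Each member's normalized count in every library as log2 of its ratio to the mean of the 4 control libraries, with knockout libraries in red above control libraries in blue, members grouped by role and asterisks at an adjusted p under 0.05. For 16 members all red points lie left of all blue points, and knockout replicate 1 holds the lowest Kmt2a, at 1863, and the lowest Kmt2d, at 1465 normalized counts.

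The 4 members printed here are those that fell most among the ones with a single start in the RefSeq promoter table (build GRCm38.p6), given as the 250 bases before the start, 5′ to 3′, so that the promoters of genes that fell side by side can be read together. Capitals mark the Sp1 word GGGCGG and the ETS word CCGGAAG, searched on both strands, with overlapping matches counted separately.
Kmt2d, chr15:98871206-98871455, minus strand: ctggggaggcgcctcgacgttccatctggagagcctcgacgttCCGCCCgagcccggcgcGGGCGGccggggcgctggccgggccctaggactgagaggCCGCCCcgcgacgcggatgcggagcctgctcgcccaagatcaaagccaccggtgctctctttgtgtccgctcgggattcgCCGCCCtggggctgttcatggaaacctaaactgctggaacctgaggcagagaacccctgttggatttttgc
Kmt2c, chr5:25498784-25499033, minus strand: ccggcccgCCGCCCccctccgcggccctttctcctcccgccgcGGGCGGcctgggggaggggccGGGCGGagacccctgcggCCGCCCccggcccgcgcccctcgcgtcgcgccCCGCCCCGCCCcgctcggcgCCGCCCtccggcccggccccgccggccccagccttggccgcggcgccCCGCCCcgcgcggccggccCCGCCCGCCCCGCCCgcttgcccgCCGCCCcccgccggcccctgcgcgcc
Kdm7a, chr6:39206774-39207023, minus strand: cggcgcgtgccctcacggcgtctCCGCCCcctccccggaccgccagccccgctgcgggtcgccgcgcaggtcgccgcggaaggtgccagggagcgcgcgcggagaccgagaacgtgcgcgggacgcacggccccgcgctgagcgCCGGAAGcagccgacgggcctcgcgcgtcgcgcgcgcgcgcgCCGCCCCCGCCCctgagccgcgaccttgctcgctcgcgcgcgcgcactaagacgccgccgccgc
Kmt5c, chr7:4739877-4740126, plus strand: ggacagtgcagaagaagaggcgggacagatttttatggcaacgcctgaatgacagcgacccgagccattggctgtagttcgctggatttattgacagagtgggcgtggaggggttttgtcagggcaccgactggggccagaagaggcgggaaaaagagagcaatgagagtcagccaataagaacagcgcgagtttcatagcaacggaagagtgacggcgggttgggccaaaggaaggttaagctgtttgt
The Kmt2c window held 12 Sp1 words, that of Kmt2d 4, that of Kdm7a 3 and 1 ETS word, and that of Kmt5c none of either. The table held a promoter for 27 members; Kmt2b, Kmt2e, Setd1b, Kdm2a, Kdm3b, Kdm4b, Kdm5a and Kdm6b had none. For genes with several starts the outermost was used. The Sp1 word was found in 16 of these 27, or 59.3%, and in 33.0% of 27025 promoters of the same length. These 27025 promoters were not limited to the genes tested here, and a comparison with tested genes alone was not made. The ETS word was found in 5 members, or 18.5%, and in 7.07% of all. The NRF1 word GCGCATGCG and the cyclic AMP response element TGACGTCA were found in 0 members, and in 1.48% and 1.6% of all promoters. The median GC content was 59.6% in the members' windows and 52% in all, which bears on G and C rich words, and a match describes letters, not a bound factor.

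Among the H3K4 methyltransferases 4 of 7 fell, and all 7 had a fold change below 0, against 11.3% and 48.1% of all tested genes. Their longest transcripts ran from 6487 nucleotides for Setd1a to 19823 for Kmt2d. Of all tested genes 21.5% fell at 6000 to 8000 nucleotides and 31.7% over 8000. With the length correction given below, Kmt2c, Kmt2d and Setd1b still fell, and Kmt2b had a log2 fold change of 0.13. Kmt2c and Kmt2d (MLL3 and MLL4), which lay monomethyl H3K4 at enhancers, had the lowest fold changes of this group. Kmt2c (ENSMUSG00000038056, GRCm38 chromosome 5, 25271798 to 25498783, minus strand, positions here and below from GENCODE M21) had 1387, 1499 and 1801 normalized counts in knockout libraries, against 2387, 2832, 2379.7 and 2668 in control libraries. It averaged 1562 ± 214 (SD, n = 3) in knockouts and 2567 ± 222 (SD, n = 4) in controls, a log2 fold change of -0.72 (SE 0.10, limma adjusted p = 0.00283). No knockout library reached the lowest control, and Kmt2c fell under each of the 22 alternatives tried, with adjusted p between 1.11e-07 and 0.0371. Kmt2d (ENSMUSG00000048154, chromosome 15, 98831669 to 98871204, minus strand) had 1465, 2149 and 2526 normalized counts in knockout libraries, against 2941, 4317, 3258 and 3407 in control libraries. Its log2 fold change was -0.79 (SE 0.19, limma adjusted p = 0.0196), and the groups did not overlap although each was widely spread. The fall in Kmt2d did not pass without control replicate 2 (log2 fold change -0.68, limma adjusted p = 0.0504).

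The SETD1 enzymes, which lay most of the trimethyl H3K4 at promoters, also fell. Setd1b (ENSMUSG00000038384, chromosome 5, 123142193 to 123168629, plus strand) had 622, 783 and 782 normalized counts in knockout libraries, against 955, 997, 982 and 1004 in control libraries (log2 fold change -0.44, SE 0.09, limma adjusted p = 0.0108). Setd1a (ENSMUSG00000042308, chromosome 7, 127776670 to 127800122, plus strand) had 209, 228 and 234 normalized counts in knockout libraries, against 276, 295, 289 and 281 in control libraries (log2 fold change -0.35, SE 0.08, limma adjusted p = 0.0172). For both genes every knockout library lay below every control library. The call of Setd1b held with any 1 library left out, while that of Setd1a was lost at an adjusted p of 0.0506 without control replicate 2, and at an adjusted p of 0.0520 without knockout replicate 2. Setd1a overlaps Gm49388 on its own strand, a gene that the table does not list.

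The other 3 of this group did not pass. Kmt2a (MLL1), which maintains HOX gene expression in blood stem cells, had 1863, 2821 and 3136 normalized counts in knockout libraries, against 2883, 4061, 3094 and 3459.7 in control libraries (log2 fold change -0.39, SE 0.18, limma adjusted p = 0.153). Only knockout replicates 1 and 2 were below all controls. Kmt2e, a SET domain protein that reads H3K4 trimethylation, had 2028, 2259 and 2511 normalized counts in knockout libraries, against 2441, 2921, 2645 and 2628 in control libraries (log2 fold change -0.23, SE 0.09, limma adjusted p = 0.0996), with knockout replicate 3 above the lowest control. Kmt2b (MLL2), which methylates H3K4 at promoters, had a log2 fold change of -0.10 with a 95% interval of -0.28 to 0.07. Srpk2, on the opposite strand at the Kmt2e locus, was counted at a mean of 735.5 normalized counts, and whether the counting used strand is not stated in the labels or processing notes.

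Of the H3K36 methyltransferase Setd2 and the 5 other SETD proteins, 2 fell, where 11.3% of all tested genes did. All 6 had a fold change below 0, against 48.1% of all tested genes. Setd2 (ENSMUSG00000044791, chromosome 9, 110532597 to 110618633, plus strand), the enzyme of H3K36 trimethylation, had 1772, 1690.3 and 1966 normalized counts in knockout libraries, against 2072, 2141, 2138 and 2223 in control libraries (log2 fold change -0.25, SE 0.07, limma adjusted p = 0.036). Setd7 (ENSMUSG00000037111, chromosome 3, 51515319 to 51560879, minus strand), which adds 1 methyl group to H3K4 and to many other proteins, had 1231, 1327 and 1457 normalized counts in knockout libraries, against 1529.5, 1722, 1627 and 1580.0 in control libraries (log2 fold change -0.27, SE 0.08, limma adjusted p = 0.0355). The groups did not overlap for either gene, but both calls were near the threshold. Setd2 passed only with knockout replicate 3 as the library left out (adjusted p from 0.0520 to 0.135 without any other 1 library). Setd7 passed only without control replicate 1 or knockout replicate 3 (adjusted p from 0.0659 to 0.103 without any other 1 library).

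Setd3, which methylates actin at a histidine, had 1004, 1075 and 1063 normalized counts in knockout libraries, against 1239, 1219, 1127 and 1315 in control libraries. The groups did not overlap, and the adjusted p lay just past the threshold (log2 fold change -0.22, SE 0.07, limma adjusted p = 0.0513). It passed without control replicate 3 (adjusted p = 0.0351). Setd5, a SET domain protein whose own enzyme activity is disputed, had 1810.0, 1911 and 2168 normalized counts in knockout libraries, against 2258, 2393, 2134 and 2267 in control libraries (log2 fold change -0.21, SE 0.08, limma adjusted p = 0.0898). Knockout replicate 3 lay within the control range, and Setd5 passed without it (adjusted p = 0.0403). Setd6, which methylates the NF-kB subunit RelA, had a log2 fold change of -0.36 (95% interval -0.69 to -0.04, limma adjusted p = 0.0991), and the low Setd4 one of -0.38 (95% interval -0.95 to 0.18).

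Of the 2 H3K9 methyltransferases, Setdb1 fell, where 11.3% of all tested genes did, and Setdb2 did not pass. Setdb1 (ENSMUSG00000015697, chromosome 3, 95323525 to 95357202, minus strand), which silences retroelements by H3K9 trimethylation, had 653, 637 and 701 normalized counts in knockout libraries, against 800.3, 755, 836 and 811 in control libraries (log2 fold change -0.27, SE 0.07, limma adjusted p = 0.0237). The groups did not overlap. Leaving out control replicate 3, control replicate 4 or knockout replicate 2 lost the call of Setdb1, at adjusted p of 0.0520, 0.0633 and 0.0928. Setdb2, an interferon-induced relative, had 257, 249.98 and 249 normalized counts in knockout libraries, against 226, 224, 255 and 223 in control libraries (log2 fold change 0.12, SE 0.08, limma adjusted p = 0.339). The opposite-strand neighbour Cers2, at a mean of 2320 normalized counts, overlaps Setdb1.

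Of the 3 H4K20 methyltransferases, which act in replication and heterochromatin, 1 fell, where 11.3% of all tested genes did. All 3 had a fold change below 0, against 48.1% of all tested genes. Kmt5c (ENSMUSG00000059851, chromosome 7, 4740115 to 4747514, plus strand), which lays trimethyl H4K20 in heterochromatin, had 247, 242 and 257 normalized counts in knockout libraries, against 308, 358, 357 and 309.7 in control libraries (log2 fold change -0.42, SE 0.09, limma adjusted p = 0.0134). Every knockout library lay below every control library. The call was lost without knockout replicate 2 (adjusted p = 0.0525). Kmt5b, its close relative, had 948, 1023 and 1009 normalized counts in knockout libraries, against 1051, 1210.4, 1126 and 1205 in control libraries (log2 fold change -0.21, SE 0.07, limma adjusted p = 0.0721), again without overlap, and passed without control replicate 1 (adjusted p = 0.0457). Kmt5a, which adds the first methyl group at H4K20, had 1972, 2096 and 2122 normalized counts in knockout libraries, against 2956, 2783, 1937 and 2632 in control libraries (log2 fold change -0.30, SE 0.13, limma adjusted p = 0.137). Control replicate 3 lay below all knockout libraries for Kmt5a, and without it Kmt5a passed (log2 fold change -0.43, adjusted p = 0.00797).

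Of the 17 demethylases 2 fell, or 11.8%, close to the 11.3% of all tested genes, and of the 18 methyltransferases 8 fell, or 44.4%. The median log2 fold changes were -0.11 for demethylases and -0.29 for methyltransferases. Of the methyltransferases that fell, Kmt2c, Kmt2d, Setd1b and Setd2 exceeded 8000 nucleotides, where 31.7% of all tested genes fell. Setd1a and Setd7 lay between 6000 and 8000, where 21.5% did. With the length correction given below, Setd1a, Setd2, Setd7 and Kdm7a did not pass, Setd3 fell and Kdm2b rose. Kdm5a, Kdm5b, Kdm2a, Kdm6a, Kdm6b and Kmt2b moved above 0, none past the threshold. The difference between the classes was not tested. None of the 5 H3K4 demethylases passed. Kdm1b (LSD2), an amine oxidase, had 336, 373 and 355 normalized counts in knockout libraries, against 408, 423, 403 and 400.0 in control libraries (log2 fold change -0.20, SE 0.07, limma adjusted p = 0.0738), and its groups did not overlap. Kdm1a (LSD1), which works in the CoREST complex, had 632, 726.9 and 677 normalized counts in knockout libraries, against 764, 727.0, 733 and 769.9 in control libraries (log2 fold change -0.14, SE 0.07, limma adjusted p = 0.175), and knockout replicate 2 all but met control replicate 2. Luzp1 overlaps Kdm1a and Dek overlaps Kdm1b on the other strand, with means of 1285 and 1962 normalized counts. The KDM5 enzymes, which remove tri- and dimethyl H3K4, lay close to 0, with log2 fold changes of -0.15 for Kdm5a (95% interval -0.36 to 0.07), -0.02 for Kdm5b (95% interval -0.19 to 0.16) and 0.00 for Kdm5c (95% interval -0.17 to 0.18).

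None of the H3K36 demethylases passed, among them Kdm2a and Kdm2b, which bind unmethylated CpG islands. Kdm2b, which brings a Polycomb complex to CpG islands, had 368, 535 and 401 normalized counts in knockout libraries, against 302, 329, 284 and 369 in control libraries. Its log2 fold change was 0.43 (SE 0.14, limma adjusted p = 0.0626), knockout replicate 1 lay just under the highest control, and Kdm2b passed as higher without knockout replicate 1 (log2 fold change 0.54, adjusted p = 0.035). Kdm2a had 2245, 2329.7 and 2298 normalized counts in knockout libraries, against 2518, 2617, 2404 and 2646 in control libraries, with no overlap (log2 fold change -0.15, SE 0.06, limma adjusted p = 0.11). The low Kdm8, a JmjC protein, had a log2 fold change of 0.28 (95% interval -0.22 to 0.78). Rnf34 and the antisense transcript A930024E05Rik overlap Kdm2b on the other strand, with means of 808 and 80.8 normalized counts.

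Of 7 H3K9 demethylases 2 fell, Kdm7a and Kdm3a, where 11.3% of all tested genes did. Kdm7a (ENSMUSG00000042599, chromosome 6, 39136623 to 39206789, minus strand), which removes dimethyl groups from H3K9 and H3K27, had 2517, 1808 and 2442 normalized counts in knockout libraries, against 3020.5, 3659, 3841 and 3774 in control libraries. It averaged 2255 ± 389.6 (SD, n = 3) in knockouts and 3574 ± 376 (SD, n = 4) in controls (log2 fold change -0.67, SE 0.13, limma adjusted p = 0.00909). Kdm3a (ENSMUSG00000053470, chromosome 6, 71588972 to 71632990, minus strand), an H3K9 demethylase known as a hypoxia-induced gene, had 974, 1061 and 1079.5 normalized counts in knockout libraries, against 1447, 1374, 1207 and 1616 in control libraries (log2 fold change -0.44, SE 0.10, limma adjusted p = 0.0162). Neither gene's groups overlapped, and both calls held with any 1 library left out. Kdm7a, with a 9566-nucleotide transcript, missed the threshold after the length correction (limma adjusted p = 0.0568), while Kdm3a passed.

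The other 5 H3K9 demethylases did not pass. Kdm4d had 31.4, 19.2 and 10.8 normalized counts in knockout libraries, against 4.06, 13.7, 12.4 and 10.03 in control libraries (log2 fold change 0.95, SE 0.47, limma adjusted p = 0.177). Its groups overlapped, with knockout replicate 3 inside the control range. Kdm3b, the relative of Kdm3a, had 1514, 1417 and 1432 normalized counts in knockout libraries, against 1603, 1635, 1602 and 1485 in control libraries (log2 fold change -0.12, SE 0.06, limma adjusted p = 0.201). Kdm4a, Kdm4b and Kdm4c, which remove trimethyl H3K9 and H3K36, had log2 fold changes of 0.01 (95% interval -0.13 to 0.14), -0.15 (95% interval -0.34 to 0.05) and -0.02 (95% interval -0.18 to 0.13).

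The H3K27 demethylases, which remove the Polycomb mark, showed no difference past the threshold. Kdm6b (JMJD3) had 895, 988 and 1005 normalized counts in knockout libraries, against 1031, 1234, 812 and 1131 in control libraries (log2 fold change -0.11, SE 0.13, limma adjusted p = 0.576), with the knockouts inside the control range. Kdm6a (UTX) had 696, 644 and 680.2 normalized counts in knockout libraries, against 658, 689, 716 and 729 in control libraries (log2 fold change -0.05, SE 0.07, limma adjusted p = 0.618). The 95% intervals were -0.41 to 0.19 for Kdm6b and -0.20 to 0.10 for Kdm6a. Kdm6a and Kdm5c are X-linked genes that escape X inactivation, and the Y-linked Kdm5d was at 482 to 571 normalized counts in knockout and at 501 to 564 in control libraries.

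Per kilobase of the longest annotated transcript, the mean level over the 7 libraries ran from 5.39 normalized counts per kilobase for Kdm4d to 861 for Kmt5a. Next to Kmt5a came Setd3 with 417, Kmt2e with 340.4, Setd5 with 316 and Kdm7a with 315 normalized counts per kilobase. At the low end, Setd4 with 15.7, Kdm8 with 18.9, Setd1a with 39.9 and Setd6 with 47.5 followed Kdm4d. Members that fell lay between 39.9 for Setd1a and 315 for Kdm7a on this scale.

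Transcript length went with the fold changes in the whole table and, by rank correlation, in the family, whose medians by length class were uneven. The members' longest annotated transcripts had a median of 6130 nucleotides, against 2965 over all tested genes, and 74.3% of members were longer than 4000. Over all tested genes the median log2 fold change was 0.16 for transcripts of up to 1000 nucleotides, 0.00 for 3000 to 4000, -0.14 for 6000 to 8000 and -0.23 for over 8000. Of 628 tested genes over 8000 nucleotides 31.7% fell, and of the 10 members in that class 5 did, with a median log2 fold change of -0.32. Of the 8 members of 6000 to 8000 nucleotides 2 fell, where 21.5% of tested genes did, and of the 8 members of 4000 to 6000 nucleotides 2 fell, where 14.9% did. Of the 9 members of up to 4000 nucleotides 1 fell, Kmt5c, where 7.67% of tested genes of that length did. The members' median log2 fold changes did not follow the order of length: they were -0.37 for the 2 members of 1000 to 2000 nucleotides, -0.22 for the 5 of 2000 to 3000, -0.01 for the 2 of 3000 to 4000, -0.10 for the 8 of 4000 to 6000 and -0.21 for the 8 of 6000 to 8000. Spearman's rho between log2 fold change and length was -0.23 across 12945 genes and -0.30 across the 35 members, which share the same 7 libraries.

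**Figure D2:**
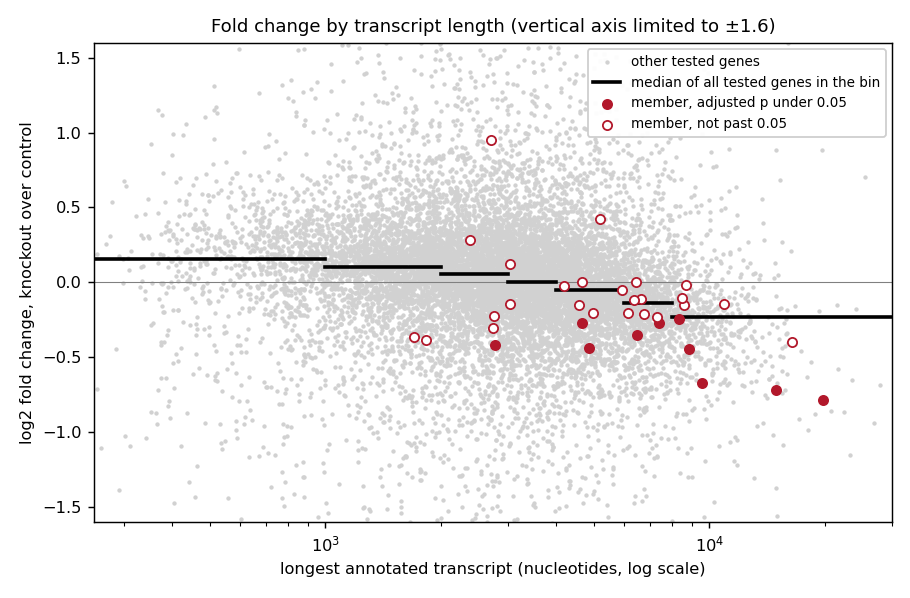
Log2 fold change, knockout over control, of each tested gene against the length of its longest annotated transcript (log scale), with black bars for the median of all tested genes in each length class and red circles for the 35 members, filled at an adjusted p under 0.05. The bars descend from 0.16 to -0.23, and Kmt2c, Kmt2d and Kdm7a lie well below the bar of their class.

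This slope differed between libraries. The median log2 deviation of genes over 8000 nucleotides from their mean over the libraries, less that of genes up to 1000, was -0.42, -0.21 and -0.06 in knockout replicates 1, 2 and 3, and 0.07, 0.25, 0.16 and 0.15 in control replicates 1 to 4. The members' own median deviation was -0.18, -0.09 and -0.07 in the knockout libraries and 0.06, 0.12, 0.06 and 0.09 in the control libraries. Long transcripts were thus low in every knockout library, least in replicate 3, and the groups did not overlap. This slope and the genotype cannot be told apart, because the slope lies with the groups.

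**Figure D3:**
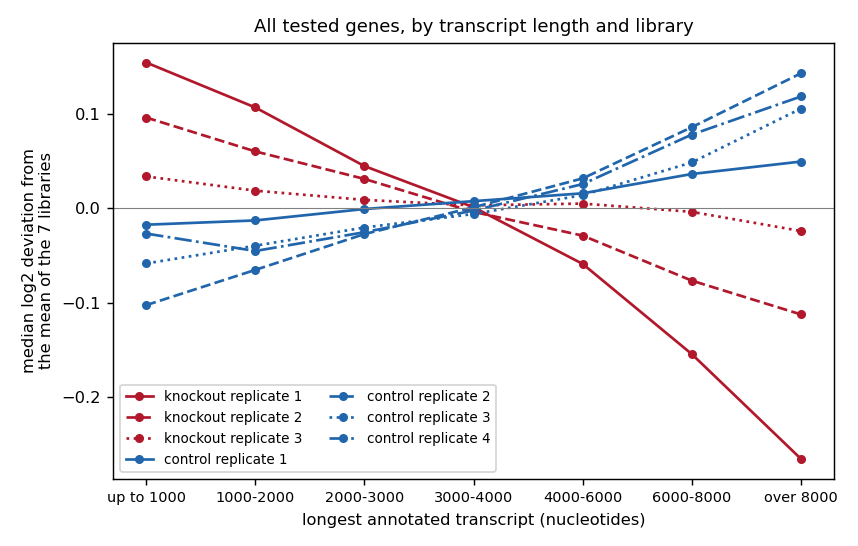
Median log2 deviation of all tested genes from their mean over the 7 libraries, by class of longest annotated transcript, with 1 line for each knockout library (red) and control library (blue). Knockout replicate 1 is lowest for transcripts over 8000 nucleotides at -0.27, and control replicate 2 is highest at 0.14.

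With the length trend of each library taken out, the median log2 fold change of the members was -0.10, against 0.00 over all tested genes, and 7 members fell while Kdm2b rose. Of all tested genes 10.2% then fell and 9.62% rose. Kmt2c (log2 fold change -0.48, adjusted p = 0.00361), Kmt2d (-0.55, adjusted p = 0.0316), Setd1b (-0.21, adjusted p = 0.0486), Setdb1 (-0.22, adjusted p = 0.0392), Kmt5c (-0.47, adjusted p = 0.00975) and Kdm3a (-0.39, adjusted p = 0.0244) still fell by limma, and Setd3 joined them (-0.28, adjusted p = 0.0246). Kdm7a missed the threshold (-0.44, adjusted p = 0.0568), as did Setd1a (-0.19, adjusted p = 0.0899) and Setd7 (-0.12, adjusted p = 0.196). Setd2, the H3K36 enzyme, had a log2 fold change of -0.01 (adjusted p = 0.926) after the correction. Kdm2b had 0.50 (adjusted p = 0.0341). Some members below 0 before the correction lay above 0 after it, none past the threshold. They were Kmt2b (0.13), Kdm5a (0.09), Kdm5b (0.22), Kdm2a (0.08), Kdm6a (0.04) and Kdm6b (0.04). The correction removes any real difference that follows length along with any technical one.

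**Figure D4:**
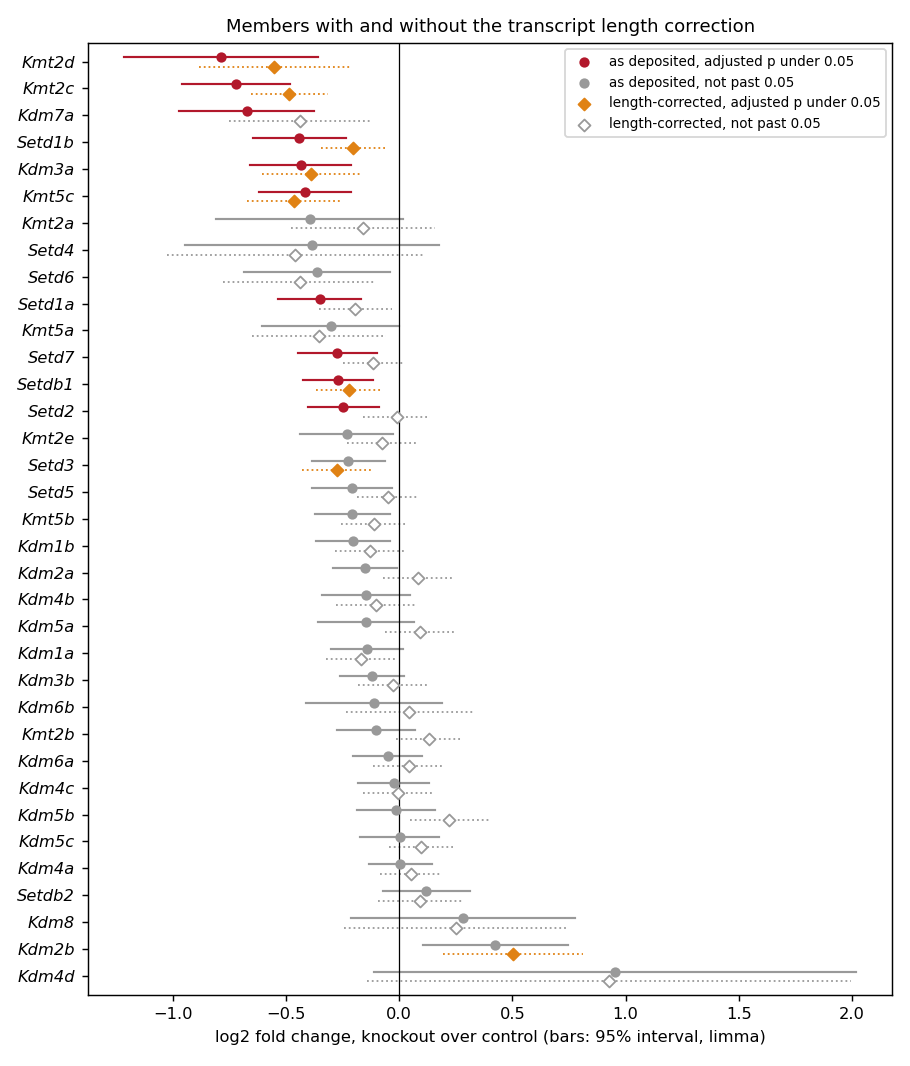
Log2 fold change of each member, knockout over control, with its 95% interval from limma, as deposited (circles, solid lines) and with each library's length trend taken out (diamonds, dotted lines), coloured at an adjusted p under 0.05. Kmt2d moves from -0.79 to -0.55 and Setd2 from -0.25 to -0.01, while the short Kmt5c moves from -0.42 to -0.47.

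Other genes of histone methylation, taken as a list of 52 symbols of partners and enzymes outside the naming rule, were read beside the family. The list held Nsd2 and Nsd3 also under their older symbols Whsc1 and Whsc1l1, and Rcor2, with a mean of 2.76 normalized counts, was not tested. Of 49 tested, 5 fell and 3 rose, or 10.2% and 6.12%, near the 11.3% and 10.4% of all tested genes, with a median log2 fold change of -0.04. Those that fell included Dot1l, the H3K79 methyltransferase, with 719.9, 732 and 762 normalized counts in knockout libraries, against 966, 1182, 1130.1 and 1012 in control libraries (log2 fold change -0.53, SE 0.08, limma adjusted p = 0.00367). Ash1l, an H3K36 methyltransferase with an 11644-nucleotide transcript, had 1110.3, 1153 and 1265 normalized counts in knockout libraries, against 1548, 1802, 1742 and 1692 in control libraries (log2 fold change -0.53, SE 0.08, limma adjusted p = 0.00284). Ncoa6, a subunit of the Kmt2c and Kmt2d complexes, had 1338, 1309 and 1328 normalized counts in knockout libraries, against 1694, 1715, 1609 and 1575 in control libraries (log2 fold change -0.31, SE 0.06, limma adjusted p = 0.00829). The groups of all 3 were apart, and these calls held with any 1 library left out, although Ncoa6 was not called after the length correction. Rcor3, a CoREST protein that partners Kdm1a, had a log2 fold change of -0.57 (SE 0.13, limma adjusted p = 0.016). The core COMPASS partners Ash2l, Wdr5, Rbbp5 and Dpy30 had log2 fold changes between -0.19 and -0.02, and none passed. Uty, the Y-linked relative of Kdm6a and the remaining gene that fell, had a log2 fold change of -0.45 (SE 0.11, limma adjusted p = 0.0234), and leaving out control replicate 2 or control replicate 4 lost its call, at adjusted p of 0.0639 and 0.0609. Uty, the COMPASS partners and the PRC2 subunits that did not pass were picked for naming after their values were seen.

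The genes of the list that rose were Ezh2 and Rbbp4, 2 of 7 tested PRC2 genes, and Hdac1, 1 of 4 tested partners of Kdm1a. Over all tested genes 10.4% rose. Ezh2, the H3K27 methyltransferase of Polycomb complex PRC2 and a gene of dividing cells, had 369, 476 and 444 normalized counts in knockout libraries, against 308, 319, 312 and 295 in control libraries (log2 fold change 0.47, SE 0.10, limma adjusted p = 0.0117). Rbbp4, a histone chaperone in PRC2 and in deacetylase complexes, had 1890.1, 1997 and 1964 normalized counts in knockout libraries, against 1598, 1645, 1567 and 1668 in control libraries (log2 fold change 0.27, SE 0.06, limma adjusted p = 0.014). Hdac1, a deacetylase that partners Kdm1a, had 1198, 1248 and 1295 normalized counts in knockout libraries, against 909, 991, 949.6 and 993 in control libraries (log2 fold change 0.38, SE 0.06, limma adjusted p = 0.00529). All knockout libraries exceeded all control libraries for these 3 genes, whereas the PRC2 subunits Suz12, Eed and the alternative methyltransferase Ezh1 had log2 fold changes of 0.03, 0.07 and -0.01. Rbbp4 did not pass without knockout replicate 2 (adjusted p = 0.0606), and Ezh2 passed there only narrowly (adjusted p = 0.0495). Ezh2 was lost without control replicates 1 and 4 (adjusted p = 0.0804) and without control replicates 2 and 3 (adjusted p = 0.0609). With either replicate block none of these 3 genes passed. Without knockout replicate 1 the number that rose was 5, with Men1 and Rbbp7 added.

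Transcripts that mark cell types of the lavage differed between the groups as well, and cell numbers were not measured here. All 10 natural killer cell markers rose, summing to 51643 to 56939 normalized counts in knockout and 10964 to 17983 in control libraries. Of 8 markers of monocytes and recruited macrophages 4 fell and 1 rose, with sums of 12641 to 19799 in knockout and 18627 to 29257 in control libraries, and of 4 markers common to macrophages 3 fell, with sums of 20038 to 23074 in knockout and 28014 to 151548 in control libraries. Lyz2, the marker of these 4 that did not pass, carries the upper control sums, and without it the sums were 18986 to 22164 in knockout and 27244 to 32767 in control libraries. None of the 8 markers of resident alveolar macrophages passed, with sums of 72834 to 120765 in knockout and 55795 to 89729.8 in control libraries. Neutrophil markers rose for 3 of 6 and epithelial markers for 5 of 6, the epithelial sums being 329 to 705 in knockout and 112 to 174 in control libraries. None of the 6 T cell markers passed, with sums of 2785 to 4310 in knockout and 3239.9 to 4092 in control libraries, and none of the 5 erythroid markers did, with the sums given above. Of the markers of these lists, only the erythroid Slc4a1 was at 0 in any library, in control replicate 1. The part of these markers' cell types in the fall of the methyltransferases was not tested.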

How the data were processed

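Airspace cells of 3 knockout and 4 control libraries were profiled by mRNA sequencing. Per the submitters' processing notes, the tools were cutadapt 1.15, STAR 2.5.3a, HTSeq and DESeq2, with GRCm38/mm10. The deposited table holds the authors' size-factor normalized counts (a signal, not raw counts), and a deposited log2 fold change, a test statistic score and p-values raw and adjusted from the authors' own comparison. Dividing each library by the step worth 1 read (its smallest value, refined by least squares) gave whole reads for 100% of values within 0.01, and these recovered reads gave the depths and served edgeR and DESeq2 as alternatives. A floor of 3 reads corresponded to 2.65 to 3.76 normalized counts and covers counting error only.

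Genes with a mean of at least 10 were fitted with limma 3.58.1 (R 4.3.3, trended empirical Bayes) on log2(normalized count + 1), with Benjamini-Hochberg adjustment over 12963 genes and a threshold of 0.05. Fold changes on this scale understate those of low genes. Alternatives used edgeR 4.0.16, DESeq2 1.42.0, limma-voom, other scalings, filters and pseudocounts, libraries left out, replicate blocks, and a correction subtracting each library's median deviation in 20 bins of transcript length (longest GENCODE M21 transcript). All 35 members had a length, 18 tested genes had none, and 99.8% of IDs matched. Symbols that had been turned into dates numbered 21 and were restored by ID. The scripts were tested on simulated data. The members and gene lists were chosen with earlier results of these data known. All members are named; values per library are given for those past the threshold and for the 2 others with the smallest p in each role group, and for up to 4 related genes per direction.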

Additional observations from a re-analysis of the deposited data

Results flagged for a closer look

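Among the 35 members, 1 had a control library far from the other 3. Setdb2 stood at 255 normalized counts in control replicate 3 and at 223 to 226 in the other control libraries, and the gap was 0.896 of the group's whole range, above the 95% critical value of Dixon's test for 4 samples. Chance flags about 1 in 20 such groups. The knockout libraries had 249 to 257.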

How the results depend on the processing

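No result reversed its direction past the threshold under any of the 22 alternatives. Kmt2b, Kdm2a, Kdm5a, Kdm5b, Kdm6a and Kdm6b, which did not pass, went from below to above 0 with the length correction. With 1 library left out, the number of members that fell lay between 5 and 11 and the number that rose between 0 and 1, the members' median log2 fold change between -0.23 and -0.16, related genes that fell between 4 and 6 and that rose between 2 and 5, and all tested genes that fell between 810 and 1293 and that rose between 694 and 1173. Without control replicates 1 and 4, 3 members fell, 1 related gene rose, and 577 of all tested genes fell and 622 rose. Without control replicates 2 and 3, 3 members fell, 2 related genes fell and 1 rose, and 619 of all tested genes fell and 614 rose. These settings test fewer samples. DESeq2 called 1 member higher, and the cause was not tested. The length correction gave 1 member higher, a members' median of -0.10 and 5 related genes higher, Nsd3 and Phf8 added. Scaling by library size lost Setd2 and Setd7. With a replicate block by title number, 2 members fell, 3 related genes fell and 0 rose, and 382 of all tested genes fell and 424 rose; with a replicate block by description number, 2 members fell, 3 related genes fell and 0 rose, and 605 fell and 591 rose. Same-numbered deviations correlated at -0.23, -0.03 and -0.19 by title and at -0.08, -0.29 and 0.08 by description. By either numbering, 0 of 3 knockout libraries correlated best with their own number. With 3 values for each numbering, this cannot decide whether the libraries were paired. The depth of 9903284 to 13353733 reads limits Kdm4d, Setd4 and Kdm8 most, since they had the fewest reads.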

Other observations

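Rows with a matching symbol outside the 35 members were Kdm6bos, Kdm4dl and Kdm5d. The antisense gene Kdm6bos had 5.07, 4.81 and 5.42 normalized counts in knockout libraries, against 13.2, 20.5, 8.85 and 12.5 in control libraries. All knockout libraries lay below all control libraries, as they did for 16.3% of all tested genes. The Kdm6bos values stand for 5, 5 and 6 reads in knockout libraries and 13, 21, 10 and 10 reads in control libraries. Whether the counting used strand is not stated. Kdm4dl, a pseudogene near in sequence to Kdm4d, had a mean of 2.22 normalized counts, below the 2.65 to 3.76 normalized counts that 3 reads are worth, and how the counting shared reads between the pair was not tested.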
